A study of Mus musculus with 20 samples.

Results

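The genes described here are 10 enzymes of triglyceride synthesis, chosen by name from the 22298 genes listed in every library of the series: Mogat1, Mogat2, Gpam, Agpat2, Agpat3, Lpin1, Lpin2, Lpin3, Dgat1 and Dgat2. All 10 were among the 12342 genes that passed the filter on low counts and were tested. Bulk RNA sequencing was done on liver from 20 male Lepr db/db mice, an obese and diabetic strain without functional leptin receptor signalling, with 5 mice in each of 4 groups and 1 library per mouse. An AAV8 vector was injected into the tail vein of every mouse at the age of 5 weeks. In the Vec and Vec+BBR groups the vector carried a non-targeting shRNA, and in the shRNA and shRNA+BBR groups it carried 4 shRNAs against Pparg, which encodes the fatty acid-activated transcription factor PPARγ. The Vec+BBR and shRNA+BBR mice were given benzbromarone (BBR, a drug that lowers uric acid and is used in gout) by gavage at 25 mg per kg body weight daily for 4 weeks. The Vec and shRNA mice were given the vehicle, 0.5% CMC-Na, and livers were taken after a fast of 6 hours. No group was a lean strain or went without a vector, so every comparison is within obese, AAV8-injected males. In addition, the vector lowers Pparg only in part, and the libraries are of whole liver with all its cell types.

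Triglyceride is built by adding fatty acids to a glycerol backbone, and the step before last, diacylglycerol, can be reached along a pair of routes. In the glycerol phosphate route, Gpam on the outer mitochondrial membrane acylates glycerol 3-phosphate, Agpat2 and Agpat3 add the next fatty acid to give phosphatidic acid, and the lipins Lpin1, Lpin2 and Lpin3 remove the phosphate. In the monoacylglycerol route, Mogat1 and Mogat2 acylate monoacylglycerol directly, a reaction best known from fat absorption by the small intestine, where Mogat2 is the main enzyme, whereas Mogat1 is known as a gene that rises in fatty mouse liver. Dgat1 and Dgat2 add the last fatty acid in both routes, and phosphatidic acid and diacylglycerol are also branch points to phospholipids and to signalling.

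Total counts per library ran from 17432903 to 25024094, and a count of 3, below which a gene was treated as not detected, corresponded to between 0.12 and 0.172 CPM (counts scaled to the library total, and for all gene values below also by the TMM factor of the library). The lowest count of any of the 10 genes in any library was 44, for Mogat2. Mitochondrial genes took 9.14% to 10.8% of the counts in Vec, 9.96% to 13.8% in Vec+BBR, 9.90% to 12.3% in shRNA and 10.2% to 16.2% in shRNA+BBR. Pparg, the targeted gene, was measured at 16.4, 20.1, 35.9, 19.4 and 32.1 CPM in the Vec libraries and at 7.31, 6.53, 5.96, 3.24 and 5.63 CPM in the shRNA libraries, with no overlap (log2 fold change -2.12, edgeR quasi-likelihood test with Benjamini-Hochberg adjustment, adjusted p = 4.47e-05). In the mice given BBR, Pparg was measured at 34.8, 29.8, 28.0, 28.1 and 38.3 CPM in Vec+BBR and at 11.4, 9.99, 21.8, 18.9 and 7.19 CPM in shRNA+BBR, again with no overlap (log2 fold change -1.20, edgeR adjusted p = 0.00843). Pparg was higher in shRNA+BBR than in shRNA (log2 fold change 1.28, edgeR adjusted p = 0.00773), so the knockdown groups did not have the same Pparg level.

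The 10 genes differed in level per length by more than 100-fold, and their order was led by Dgat2 in each group, as the plot of FPKM by gene shows. FPKM, is the authors' own unit, in which fragments are scaled to transcript length and library size, and is used here wherever genes are compared with each other. In Vec, Dgat2 was measured at 246 ± 21.6 FPKM (SD, n = 5), Agpat2 at 190 ± 43.7 and Agpat3 at 129 ± 10.5. The Vec ranges of Dgat2 and Agpat2 overlapped, and that of Agpat3 lay below both. Lpin2 at 53.7 ± 11.9 and Gpam at 45.6 ± 27.4 FPKM overlapped fully and came next. Dgat1 at 13.2 ± 1.60, Mogat1 at 10.5 ± 8.78, Lpin1 at 6.08 ± 1.16 and Mogat2 at 5.27 ± 2.25 FPKM formed a lower tier, in which the Mogat1 libraries spread across the ranges of Dgat1, Lpin1 and Mogat2. Lpin3 was lowest, at 1.34 ± 0.259 FPKM. In Vec+BBR the ranges of Mogat1 (37.4 to 45.4 FPKM) and Lpin2 (35.1 to 73.9 FPKM) overlapped, whereas in shRNA Mogat1 (3.10 to 7.61 FPKM) lay below every library of Dgat1 (11.5 to 13.9 FPKM).

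**Figure D1:**
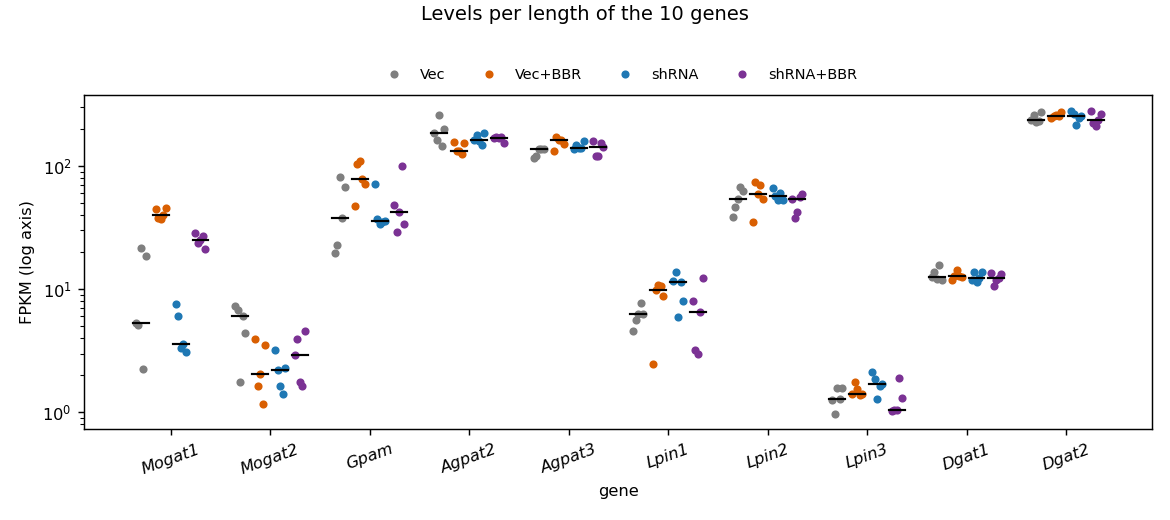
Level per length of each of the 10 genes in FPKM on a log axis, with 1 point per library coloured by group and a black bar at the group median. Mogat1 shifts by group, from a median of 3.56 FPKM in shRNA to 40.1 FPKM in Vec+BBR, whereas Dgat1 and Dgat2 keep to 1 narrow band each.

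With BBR, Mogat1 passed as higher in mice of either vector, and it was the only one of the 10 genes that did so. Gpam was also higher in both estimates (1.53-fold in Vec and 1.41-fold in shRNA) but did not pass. In Vec+BBR against Vec, Mogat1 was higher (3.53-fold), and Mogat2 (0.435-fold) and Agpat2 (0.675-fold) were lower, so 3 of the 10 genes passed the test, where 15.5% of all tested genes did (7.58% higher and 7.88% lower). The same 3 were the ones with an unadjusted p under 0.05, where 30.2% of all tested genes had one. The median log2 fold change of the 10 genes was -0.02, beside -0.01 over all genes tested. In shRNA+BBR against shRNA, Mogat1 was the 1 gene of the 10 that passed (5.46-fold higher), where 15.7% of all tested genes did (8.37% higher and 7.28% lower). Mogat1 and Lpin3 had an unadjusted p under 0.05, where 33.2% of all tested genes did, and the median log2 fold change of the 10 was -0.04, beside 0.01 over all genes tested. Without scaling factors the median of all genes in Vec+BBR against Vec moved to 0.13, and 80.0% of the called genes were then higher in place of 49.1%. Under that setting Dgat2 and Lpin2 changed sign, at values near 0.

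With Pparg knockdown, both monoacylglycerol acyltransferases passed as lower in the mice without BBR. Each of these calls was lost when certain single libraries were left out. In the mice with BBR, none of the 10 genes passed in the fit of all groups. A fit of only the shRNA+BBR and Vec+BBR libraries called Mogat1 as lower (edgeR, adjusted p = 0.0069). In shRNA against Vec, Mogat1 (0.411-fold) and Mogat2 (0.380-fold) were lower, which makes 2 of the 10 genes, where 13.2% of all tested genes passed (5.28% higher and 7.91% lower). These and Agpat2 had an unadjusted p under 0.05, as did 28.4% of all tested genes. For the 10 genes the median log2 fold change was -0.12, beside -0.01 over all genes tested. In shRNA+BBR against Vec+BBR, the edgeR fit of all groups called 0 of the 10. It called 8.13% of all tested genes (3.31% higher and 4.82% lower). Of the 10 genes, 2 (Agpat2 and Agpat3) had an unadjusted p under 0.05, where 24.7% of all tested genes did. DESeq2 also called 0 of the 10 in that comparison, where it called 1418 of the 12342 genes tested. There the median of the 10 log2 fold changes was -0.16, beside 0.00 over all genes tested. The difference between the BBR effects in the vectors, tested as an interaction, passed for 0 of the 10 genes in edgeR and in DESeq2, with Agpat2 and Mogat2 at an unadjusted p under 0.05. In that test 0.146% of all genes passed in edgeR, 0.0729% in each direction, and 18.5% had an unadjusted p under 0.05. For the same difference DESeq2 called 338 of the 12342 genes. Each of the 4 groups enters 2 of the 4 comparisons of groups, so the comparisons are not independent of each other.

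**Figure D2:**
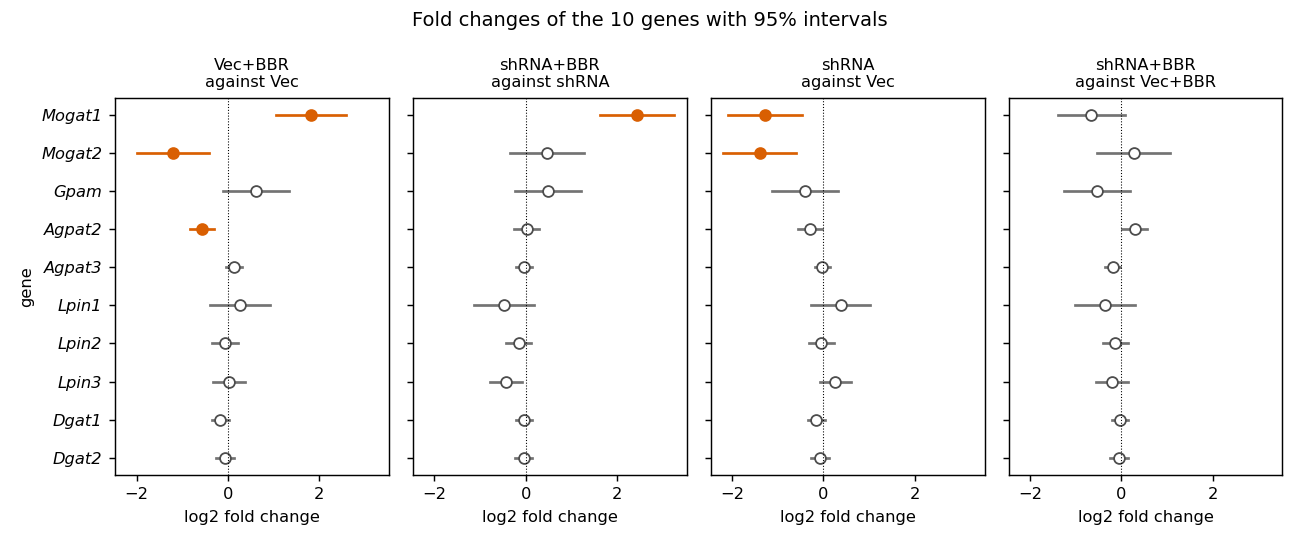
Log2 fold change of each of the 10 genes (points) with its 95% interval (lines) in the 4 comparisons of 5 libraries against 5, from the edgeR fit; filled orange points passed an adjusted p of 0.05. Mogat1 is at 1.82 and 2.45 in the BBR comparisons, Mogat1 and Mogat2 are at -1.28 and -1.40 with knockdown without BBR, and the Dgat1 and Dgat2 intervals include 0 in all 4.

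Mogat1 (ENSMUSG00000012187; GRCm38 chromosome 1, 78510991 to 78538173, plus strand), the acyltransferase of the monoacylglycerol route that is known from fatty liver, was measured at 5.91, 6.88, 23.8, 2.64 and 18.7 CPM in the 5 Vec libraries. In Vec+BBR it was measured at 50.8, 32.4, 39.0, 38.3 and 45.1 CPM. Every Vec+BBR library was above every Vec library, and among Vec libraries replicates 3 and 5 stood above the rest. The log2 fold change was 1.82 ± 0.37 (SE; edgeR, adjusted p = 0.00258), and groups that do not overlap were found for 8.94% of all tested genes. The call held under all 18 alternative settings, with log2 fold changes from 1.56 to 2.25.

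In shRNA, Mogat1 was measured at 7.40, 5.97, 3.62, 3.46 and 3.58 CPM. In shRNA+BBR it was measured at 27.5, 26.3, 27.5, 27.4 and 21.7 CPM. The groups did not overlap, as was the case for 11.4% of all tested genes, and the shRNA+BBR libraries had the lowest relative spread of Mogat1 in the series (SD of 9.58% of the mean, beside 78.9% in Vec). The log2 fold change of BBR under knockdown was 2.45 ± 0.39 (SE; edgeR, adjusted p = 0.00207), and its call also held under all 18 alternatives. The BBR effects on Mogat1 in the vectors differed by 0.63 on the log2 scale (95% interval -0.46 to 1.72; edgeR interaction, adjusted p = 0.525), so a difference between them was not detectable with 5 mice per group.

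Knockdown without BBR lowered Mogat1 by a log2 fold change of -1.28 ± 0.39 (SE; edgeR, adjusted p = 0.034), although the groups overlapped, with Vec replicate 4 lowest of all 10 libraries (8.96% of all tested genes had groups without overlap). That call was lost when Vec replicate 3 (log2 fold change -0.84, adjusted p = 0.144) or Vec replicate 5 (-1.04, adjusted p = 0.092) was left out. It was also lost without shRNA replicate 3, 4 or 5 and in a fit of only these 2 groups (adjusted p = 0.114), and the adjusted p ran from 0.00265 to 0.144 over the alternatives. With BBR, all shRNA+BBR libraries were below all Vec+BBR libraries, which was so for 8.48% of all tested genes, but the log2 fold change of -0.66 (95% interval -1.39 to 0.08) did not pass (edgeR, adjusted p = 0.259). In a fit of only those 2 groups it passed (adjusted p = 0.0069), and over all alternatives its adjusted p ran from 0.0069 to 0.372. The main fit shares its estimate of spread among all 4 groups. The SD of Mogat1 was 17.1% of the mean in Vec+BBR, 9.58% in shRNA+BBR, 78.9% in Vec and 37.2% in shRNA. The Mogat1 medians were thus ordered shRNA, Vec, shRNA+BBR and Vec+BBR, at 3.62, 6.88, 27.4 and 39.0 CPM.

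The sequence before the start of Mogat1 is shown because Mogat1 was the gene that passed in both BBR comparisons. The line below gives the 181 bases before its GENCODE start, from the RefSeq promoter (GRCm38.p6, chr1:78510810-78510990, plus strand, read 5′ to 3′). Capitals would mark a match to any of 5 motifs searched on both strands. The RefSeq start lies further downstream, and the bases between the starts were left out and not searched.

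Mogat1: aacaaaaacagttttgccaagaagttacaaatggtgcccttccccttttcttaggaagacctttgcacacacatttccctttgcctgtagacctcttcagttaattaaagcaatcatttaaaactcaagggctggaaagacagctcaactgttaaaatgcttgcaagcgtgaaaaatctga

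The motifs were the PPAR and RXR direct repeat (2 copies of AGGTCA with 1 base between) with up to 3 mismatches, 1 copy of AGGTCA, the sterol regulatory element TCACNCCAC, the E-box CACGTG and the CCAAT box CCAAT, and an exact direct repeat also holds that copy. None was found in this window. Of the 32851 promoters in the table, 15.9% hold the direct repeat with up to 3 mismatches in a window of that length, 10.3% 1 copy of AGGTCA, 0.697% the sterol regulatory element, 3.72% the E-box and 25.2% the CCAAT box. The absence says only that these letters are not in this window.

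Mogat2 (ENSMUSG00000052396; chromosome 7, 99219084 to 99238619, minus strand), the main monoacylglycerol acyltransferase of the intestine, lies on the same strand as Dgat2 with 36364 bases between them. It was measured at 13.8, 13.9, 3.33, 10.9 and 7.96 CPM in Vec and at 7.31, 2.55, 3.62, 1.96 and 6.17 CPM in Vec+BBR. The groups overlapped through Vec replicate 3, the library in which Mogat1 was highest in its group. The log2 fold change was -1.20 ± 0.38 (SE; edgeR, adjusted p = 0.0379). The call was lost without Vec replicate 1, 2 or 4, without Vec+BBR replicate 2, 3 or 4, and in a fit of only the 2 groups, with adjusted p from 0.00666 to 0.101 over the 18 alternatives.

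In shRNA, Mogat2 was measured at 5.71, 3.85, 2.90, 2.45 and 4.00 CPM. It fell by 1.40 on the log2 scale relative to Vec (SE 0.39; edgeR, adjusted p = 0.0206), again with overlap through Vec replicate 3. That call was lost without Vec replicate 1 or 2 or shRNA replicate 3 or 4, with adjusted p from 0.00521 to 0.0624 over the alternatives. In shRNA+BBR it was measured at 5.04, 7.21, 3.17, 2.88 and 7.78 CPM. Neither shRNA+BBR against shRNA (log2 fold change 0.47, edgeR adjusted p = 0.416) nor shRNA+BBR against Vec+BBR (0.27, adjusted p = 0.715) passed. The BBR effect on Mogat2 was thus -1.20 with Vec and 0.47 with shRNA, and the difference of 1.67 (95% interval 0.53 to 2.80) had an unadjusted p of 0.00605 and an adjusted p of 0.135 in edgeR.

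**Figure D3:**
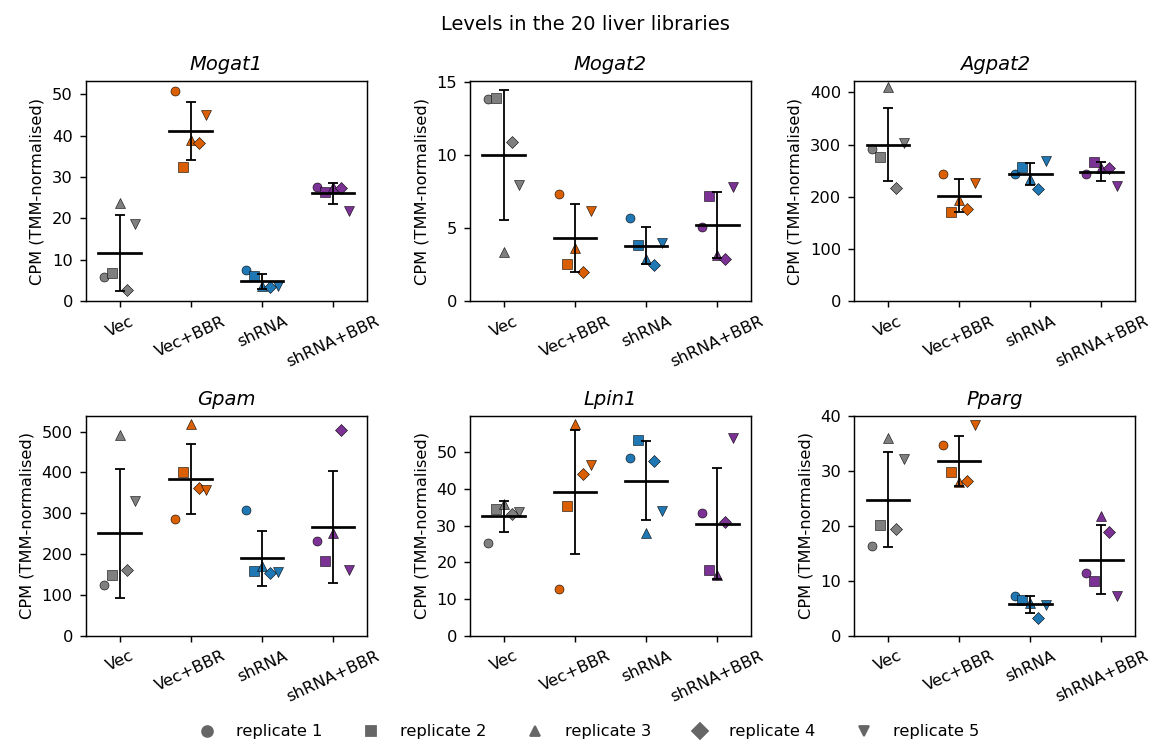
CPM of 5 of the 10 genes and of Pparg in each of the 20 libraries, 1 point per mouse with the shape giving the replicate number; bars are the group mean and SD, and replicate numbers do not link mice between groups. In Vec, replicates 3 and 5 are the 2 highest for Mogat1, Gpam, Agpat2 and Pparg and the 2 lowest for Mogat2.

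Gpam (ENSMUSG00000024978; chromosome 19, 55067268 to 55127238, minus strand), which starts the glycerol phosphate route, was measured at 123, 149, 492, 161 and 329 CPM in Vec and at 286, 400, 518, 363 and 356 CPM in Vec+BBR. The mean was 1.53-fold higher with BBR, with overlap through Vec replicates 3 and 5, and the log2 fold change of 0.62 (95% interval -0.10 to 1.34) did not pass (edgeR, adjusted p = 0.242). Without Vec replicate 3 it was 1.00 (adjusted p = 0.0331), the lowest adjusted p over the 18 alternatives, of which the highest was 0.463. In shRNA it was measured at 309, 158, 170, 153 and 157 CPM, and in shRNA+BBR at 231, 183, 252, 503 and 162 CPM. Each of these groups had 1 high library, and neither the BBR comparison under knockdown (log2 fold change 0.49, edgeR adjusted p = 0.329) nor the knockdown comparisons (-0.41 without BBR, adjusted p = 0.465, and -0.53 with BBR, adjusted p = 0.362) passed.

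Agpat2 (ENSMUSG00000026922; chromosome 2, 26593057 to 26604417, minus strand), which makes phosphatidic acid and whose loss causes congenital lipodystrophy, was the only one of the 6 glycerol phosphate route genes that passed in any of the 4 comparisons. It was measured at 292, 277, 410, 216 and 303 CPM in Vec and at 243, 171, 194, 176 and 226 CPM in Vec+BBR. The groups overlapped only through Vec replicate 4. The log2 fold change was -0.57 ± 0.13 (SE; edgeR, adjusted p = 0.00624), and it was called under all 18 alternatives, with values from -0.66 to -0.44. In shRNA it was measured at 244, 257, 235, 214 and 269 CPM and in shRNA+BBR at 244, 266, 256, 255 and 220 CPM, between the Vec and Vec+BBR means of 299 and 202 CPM. The BBR effect under knockdown was 0.02 (95% interval -0.25 to 0.30; edgeR, adjusted p = 0.918), and the difference between the BBR effects was 0.59 (95% interval 0.21 to 0.97), with an unadjusted p of 0.00432 and an adjusted p of 0.121. Without Vec replicate 4, that difference (0.69, adjusted p = 0.0476) and shRNA against Vec (-0.39, adjusted p = 0.0281) passed. Over their alternatives the adjusted p ran from 0.0476 to 0.207 for the difference and from 0.0281 to 0.435 for shRNA against Vec.

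The 250 bases before the start of Agpat2 are shown as those of the other gene that passed and has an entry in the promoter table (RefSeq, GRCm38.p6, chr2:26604418-26604667, minus strand, read 5′ to 3′ on the strand of the gene). Capitals mark the 1 motif match found, a direct repeat with 3 mismatches.

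Agpat2: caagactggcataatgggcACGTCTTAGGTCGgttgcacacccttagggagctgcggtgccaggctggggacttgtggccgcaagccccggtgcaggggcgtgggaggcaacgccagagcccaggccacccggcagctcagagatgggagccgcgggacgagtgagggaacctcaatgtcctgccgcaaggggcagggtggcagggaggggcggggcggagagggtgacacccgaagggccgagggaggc

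It lies 231 to 219 bases before the start, and 21.3% of all promoters hold a direct repeat with up to 3 mismatches in a window of that length. Of the other genes, the 250 bases before Gpam held 1 CCAAT box and those before Lpin1 held 1 copy of AGGTCA, found in 33.8% and 14.0% of all promoters, and those before Lpin3 held no match. A match is a description of letters and not evidence of binding.

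Agpat3 (ENSMUSG00000001211; chromosome 10, 78269178 to 78352489, minus strand), the other acyltransferase of this step, stayed between 252 and 351 CPM in all 20 libraries and passed in no comparison. Its smallest adjusted p in edgeR was 0.149, in shRNA+BBR against Vec+BBR (log2 fold change -0.19, 95% interval -0.36 to -0.02). The ratio of Agpat2 to Agpat3 in FPKM had a median of 0.809 in Vec+BBR, beside 1.45 in Vec, 1.16 in shRNA and 1.13 in shRNA+BBR. In Vec+BBR the ratio ran from 0.761 to 1.18, and in Vec from 1.07 to 1.89.

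The lipins, which turn phosphatidic acid into diacylglycerol, passed in no comparison. Lpin2 (ENSMUSG00000024052; chromosome 17, 71182560 to 71249817, plus strand) made up 78.4% to 91.3% of the summed lipin FPKM and stayed between 199 and 347 CPM. Lpin1 (ENSMUSG00000020593; chromosome 12, 16535669 to 16610966, minus strand), which also acts as a transcriptional coactivator, was measured at 25.3, 34.6, 35.8, 33.2 and 33.8 CPM in Vec, at 12.7, 35.3, 57.7, 44.1 and 46.4 in Vec+BBR, at 48.3, 53.3, 28.1, 47.7 and 33.9 in shRNA and at 33.5, 17.9, 16.6, 30.9 and 53.8 in shRNA+BBR. Its SD was 12.9% of the mean in Vec and 42.9% in Vec+BBR, and its log2 fold changes lay between -0.47 and 0.38 with edgeR adjusted p from 0.302 to 0.611. Lpin3 (ENSMUSG00000027412; chromosome 2, 160880670 to 160906002, plus strand) was rare, at 3.44 to 7.40 CPM in all libraries. Its log2 fold change of -0.43 (95% interval -0.78 to -0.09) in shRNA+BBR against shRNA did not pass (edgeR, adjusted p = 0.0754). Without shRNA+BBR replicate 4 (-0.62, adjusted p = 0.0177) or shRNA replicate 3 (-0.52, adjusted p = 0.0468) it did, and over the alternatives its adjusted p ran from 0.0177 to 0.187.

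The diacylglycerol acyltransferases, which close both routes, varied little between groups and libraries. Dgat2 (ENSMUSG00000030747; chromosome 7, 99153658 to 99182719, minus strand) stayed between 481 and 675 CPM and Dgat1 (ENSMUSG00000022555; chromosome 15, 76502015 to 76511953, minus strand) between 20.7 and 30.0 CPM. The 4 log2 fold changes of Dgat2 lay between -0.08 and -0.04, with 95% intervals that together reached from -0.27 to 0.15, and those of Dgat1 lay between -0.16 and -0.03, with intervals from -0.35 to 0.15. A change of Dgat2 in either direction by more than these bounds was thus outside the 95% interval in each comparison. Dgat2 was 14.7 to 23.5 times as abundant as Dgat1 in FPKM across the 20 libraries.

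Set side by side, the summed level of the Mogat pair differed between groups and that of the 6 listed glycerol phosphate route genes did not follow it. Most of the 6-gene sum was Agpat2 and Agpat3 (median 299 FPKM in Vec), and other enzymes of the route, such as Gpat4, are not in it. It therefore says little of Gpam, whose median was 37.7 FPKM in Vec and 77.7 FPKM in Vec+BBR, with overlapping ranges. Since each library contributes both route sums, the Mogat share below is taken within a library and needs no scaling between libraries. The Mogat pair summed to a median of 12.6 FPKM in Vec, 41.3 in Vec+BBR, 5.39 in shRNA and 27.8 in shRNA+BBR. The ranges of Vec (8.35 to 23.2 FPKM) and shRNA (4.98 to 10.8 FPKM) overlapped. The 6 genes of the glycerol phosphate route summed to medians of 395, 448, 437 and 404 FPKM in the same order, with ranges that overlapped among all groups (359 to 539 FPKM over all libraries). The Mogat pair made up 3.36%, 3.21%, 4.12%, 2.07% and 4.62% of the sum of both in Vec. In Vec+BBR the share was 11.5%, 7.37%, 7.65%, 8.43% and 10%. It was 2.34%, 1.86%, 1.25%, 1.24% and 1.21% in shRNA and 6.73%, 7.10%, 6.67%, 5.52% and 5.96% in shRNA+BBR. The share was higher in each BBR library than in any library without BBR, and all Vec+BBR libraries were above all shRNA+BBR libraries. These shares are a description of RNA levels over a chosen list and were given no test.

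**Figure D4:**
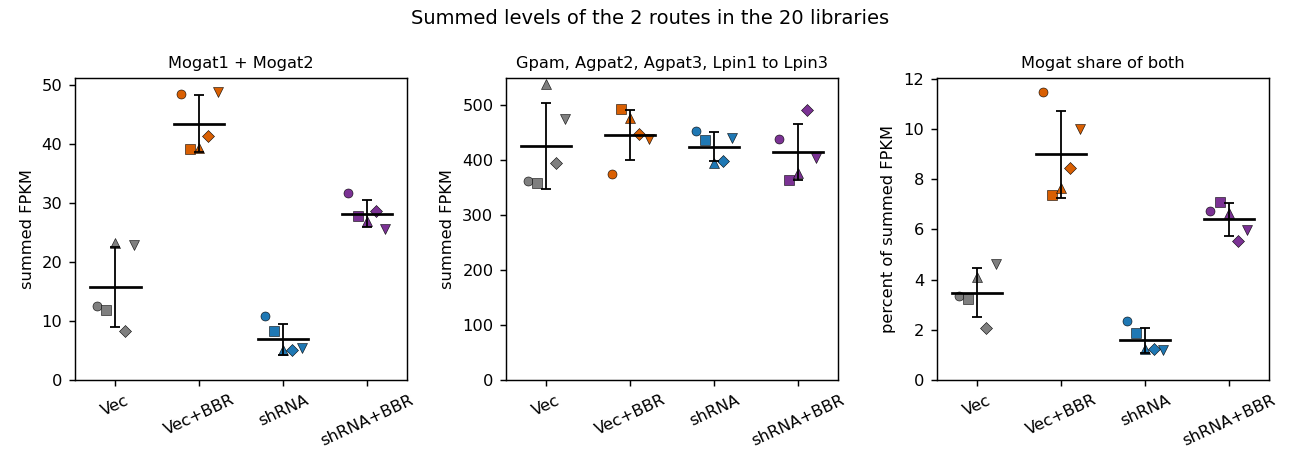
Summed FPKM of Mogat1 and Mogat2 (left), of the 6 genes of the glycerol phosphate route (middle) and the Mogat share of both in percent (right), with 1 point per library, shapes for the replicate number and bars for the group mean and SD. The Mogat share is 5.52% to 11.5% in the 10 BBR libraries and 1.21% to 4.62% in the other 10, while the middle panel shows overlapping groups.

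Within the Mogat pair, the balance also shifted. Mogat1 made up 26.8% to 92.4% of the pair's FPKM in Vec (median 42.8%), 91.9% to 97.1% in Vec+BBR (median 94.8%), 57.5% to 73.1% in shRNA (median 70.4%) and 82.2% to 94.3% in shRNA+BBR (median 90.8%). In Vec, Mogat2 was therefore the more abundant of the pair in the median library, although not in replicates 3 and 5. Relative to Gpam alone, the Mogat sum had a median ratio of 0.341 in Vec (0.222 to 0.645) and 0.532 in Vec+BBR (0.36 to 1.03), ranges that overlapped. The ratio was 0.152 in shRNA (0.142 to 0.223) and 0.653 in shRNA+BBR (0.287 to 0.962), ranges that did not.

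Across the 20 libraries, the gene whose log2 CPM followed Mogat1 most closely was Lgals1, a galactoside-binding lectin (Pearson r = 0.981). Next came Cidea, a lipid droplet protein that enlarges droplets (r = 0.975), and Dpp7, a dipeptidyl peptidase (r = 0.958). The 99th percentile over all genes was 0.876. After the group means were removed the same genes had r = 0.907, 0.878 and 0.840 with Mogat1, and for these values no percentile over all genes was computed. Gpam was followed most closely by Acaca, which makes malonyl-CoA for fatty acid synthesis (r = 0.931, and 0.946 without group means), Gpd2, the mitochondrial glycerol phosphate dehydrogenase (r = 0.902), and Dock6 (r = 0.901). For Mogat2 they were Pfdn2, Cyp4v3 and Mfsd5 (r = 0.824, 0.818 and 0.812), for Lpin1 they were Cops8, Erc1 and Ddb1 (r = 0.847, 0.830 and 0.828, with Spearman's rho lower at 0.765, 0.568 and 0.657), and for Dgat2 they were Supv3l1, Sdf4 and Lman2 (r = 0.802, 0.801 and 0.800). Among the 10 genes themselves, and without group means, Mogat1 had r = 0.768 with Agpat2 and 0.660 with Gpam, Lpin1 had 0.730 with Lpin2, Gpam had 0.718 with Lpin3, and Mogat2 had -0.601 with Gpam. With the group means left in, Mogat1 had r = -0.146 with Agpat2, the opposite sign, and 0.720 with Gpam. The relative spread of Mogat1 was largest in Vec, where its SD was 78.9% of its mean (9.58% to 37.2% in the other groups). This was not so for every gene, and the SD of Lpin1 was 12.9% of its mean in Vec (25.4% to 49.3% in the other groups). In Vec, replicates 3 and 5 stood highest for Mogat1, Gpam and Agpat2 and lowest for Mogat2. How far the values without group means rest on those libraries was not tested. These correlations are descriptions over libraries that share groups and scaling, and the nearest genes were picked from all those tested.

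Further enzymes listed with the glycerol phosphate route (13 genes tested), not all of them steps of it, moved in small numbers. With BBR in Vec, 1 rose and 2 fell, where 7.58% of all tested genes rose and 7.88% fell: Plpp2, a lipid phosphate phosphatase of the plasma membrane, from 19.8 ± 5.15 to 33.4 ± 3.55 CPM (log2 fold change 0.75), Gpat4, the acyltransferase of the endoplasmic reticulum (-0.64), and Gpd1l, related to glycerol phosphate dehydrogenase (-0.41). With BBR under knockdown 2 rose and none of the 13 fell, where 8.37% of all tested genes rose and 7.28% fell: Plpp2 (log2 fold change 0.80, edgeR adjusted p = 0.00994) and Gk, glycerol kinase, from 48.8 ± 6.82 to 72.2 ± 16.1 CPM (0.56). Knockdown without BBR raised Plpp1 (0.81, edgeR adjusted p = 0.00126) and lowered Plpp2 (-0.60, adjusted p = 0.0378), and knockdown with BBR lowered Plpp3 (-0.32). Over the 13 genes the median log2 fold changes were 0.10, 0.07, -0.18 and -0.04 in that order. With knockdown, 5.28% of all tested genes rose and 7.91% fell without BBR, and 3.31% rose and 4.82% fell with it.

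Of 11 enzymes that use monoacylglycerol or diacylglycerol, Dgkz, a diacylglycerol kinase, passed in 3 comparisons. It was at 30.9 ± 0.476 CPM in Vec, 36.9 ± 3.86 in Vec+BBR, 18.2 ± 2.48 in shRNA and 23.7 ± 2.01 in shRNA+BBR, with log2 fold changes of -0.76 and -0.64 for knockdown (edgeR, adjusted p = 2.04e-05 and 0.000301) and of 0.38 for BBR under knockdown. With BBR in Vec, the kinase Dgkh rose (0.80, at about 1 CPM) and Dgka fell (-0.76), and no other gene of the 11 passed. Under knockdown, BBR raised Dgkh (0.97), Dgkz and Mgll, the lipase that removes monoacylglycerol, the latter from 206 ± 19.7 to 324 ± 45.2 CPM (log2 fold change 0.65, edgeR adjusted p = 0.0263), and lowered Daglb (-0.40). Over the 11 genes the medians were 0.09 and 0.03 for BBR in Vec and in shRNA, and -0.12 and -0.18 for knockdown without and with BBR. Of all tested genes, 15.5%, 15.7%, 13.2% and 8.13% passed in that order.

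In the phospholipid branch (9 of 10 listed genes tested), Cds2, which draws phosphatidic acid to CDP-diacylglycerol, fell with knockdown without BBR (-0.42, edgeR adjusted p = 0.00975) and with it (-0.60, adjusted p = 0.00157). Chpt1, which makes phosphatidylcholine from diacylglycerol, fell with knockdown from 339 ± 25.5 to 218 ± 9.22 CPM (-0.63) and rose with BBR under knockdown (0.47). Pemt, the methyltransferase that makes phosphatidylcholine by another way, fell with BBR in Vec (-0.44). No other gene of the branch passed, and the median log2 fold changes were -0.02, -0.04, -0.09 and -0.05 for BBR in Vec, knockdown without BBR, knockdown with BBR and BBR under knockdown. In that order, 15.5%, 13.2%, 8.13% and 15.7% of all tested genes passed.

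Of 6 genes for droplet assembly and for the control of lipins, 4 fell with knockdown without BBR, where 7.91% of all tested genes fell. Fitm1, which helps package triglyceride into droplets, fell from 41.9 ± 19.0 to 14.0 ± 2.31 CPM (log2 fold change -1.59, edgeR adjusted p = 0.000151). Bscl2 (seipin, at the neck of forming droplets) fell by 0.33, and Ctdnep1 and Cnep1r1, which together form the phosphatase that activates lipins, fell by 0.41 and 0.43 on the log2 scale. BBR under knockdown raised Fitm1 (1.41, edgeR adjusted p = 0.00244) and Cnep1r1 (0.45), where 8.37% of all tested genes rose. None of the 6 passed in the other comparisons, where 1 (BBR in Vec) and 3 (knockdown with BBR) had an unadjusted p under 0.05. Among all tested genes, 30.2% and 24.7% had one. Medians of the 6 log2 fold changes were 0.03, -0.37, -0.15 and 0.22 in the order used for the phospholipid branch.

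Among 9 transcription regulators of lipid synthesis, Srebf1, which drives fatty acid synthesis genes, fell with BBR in Vec from 219 ± 22.1 to 148 ± 13.7 CPM (-0.57, edgeR adjusted p = 0.0444) and under knockdown from 198 ± 68.8 to 118 ± 35.8 CPM (-0.75, adjusted p = 0.0154). Mlxipl, the carbohydrate-responsive factor, fell with BBR under knockdown (-0.36), and Cebpa fell with knockdown without BBR (-0.46). Pparg, one of the 9, passed as given above. Over the 9 genes the medians were -0.06, -0.15, -0.24 and -0.01 in the same order, in which 15.5%, 13.2%, 8.13% and 15.7% of all tested genes passed.

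Some markers of liver cell types and of other cells also passed in these comparisons, and no marker list was tested as a whole. Counts of markers are to be read against the 15.5% (BBR in Vec), 15.7% (BBR under knockdown) and 13.2% (knockdown without BBR) of all tested genes that passed. In bulk liver, fewer cells of a type and less RNA per cell cannot be told apart. Hepatocyte markers summed to 84500 to 119000 CPM in Vec+BBR and 116000 to 146000 CPM in Vec, and 3 of the 6 fell (Tat, Cps1 and Serpina1c), as did Cps1 and Serpina1c in shRNA+BBR against shRNA. Adipocyte markers summed to a median of 0.386 CPM in Vec (0.101 to 1.03), 3.72 in Vec+BBR (1.25 to 6.50), 0.223 in shRNA (0 to 0.366) and 3.52 in shRNA+BBR (0.958 to 5.54). Of the 6 adipocyte markers only Cfd was abundant enough to be tested, and it rose with BBR in either vector, whereas the defining markers Adipoq, Lep and Plin1 were at or below 0.523 CPM in every library. Of the enterocyte markers, Sis and Alpi had no count in any library, and the list's sum (43.9 to 101 CPM) was nearly all Fabp2, which hepatocytes may also express and which rose with BBR under knockdown. Stellate cell markers rose with BBR in 2 of 6 (Vec) and 3 of 6 (shRNA), Col1a1 among them, the cholangiocyte marker Spp1 rose in both, 3 of 6 endothelial markers rose in Vec+BBR against Vec (1 rose and 2 fell in shRNA+BBR against shRNA), and 2 of 6 Kupffer cell markers (Marco and Timd4) fell there. With knockdown without BBR, 3 of 6 endothelial markers rose and Col1a1 fell. Pancreatic acinar markers summed to at most 5.82 CPM, of which Cela1 was the 1 gene tested and rose in Vec+BBR against Vec. The part of these cells in the Mogat results was not tested.

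The kit did not mark strand, so reads from overlapping genes on the other strand cannot be told apart from those of the gene. The longest overlap of a single exon of Mogat1 with an exon of BC035947 (mean 8.3 counts per library) was 200 bases. It was 64 for Agpat2 with Egfl7 (mean 166.6 counts), 55 for Mogat2 with Gm45012 and 16 for Agpat3 with Gm40709. The total of shared exonic bases was not computed. The length that the deposited count and FPKM of a gene imply together also moved between libraries for some of the genes. After the common shift of each library was removed, its highest value over its lowest was 1.43 for Gpam and 1.38 for Lpin1, beside a median of 1.05 over 8990 genes with at least 40 counts in every library. It was 1.22 for Mogat1 and 1.13 for Agpat3, and for Mogat2, Agpat2, Dgat1 and Dgat2 it was 1.01 or less. The tests rest on counts, and for Lpin1 the mean of shRNA over that of Vec was 1.30 in CPM and 1.68 in FPKM.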

How the data were processed

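Poly(A) RNA was sequenced without strand information (NEBNext Ultra kit, NovaSeq). The expected count and the FPKM of each gene were made by the authors, per the file headers, and the submitters' processing notes name the build mm10; the aligner, the counter and the annotation are not given in the sources used here. Groups came from the labels. Counts were rounded, filtered with filterByExpr (minimum count 10, minimum total 15), scaled by TMM (factors 0.873 to 1.14) and fitted with 4 group means in edgeR 4.0.16 (R 4.3.3, quasi-likelihood test); p-values were adjusted over all 12342 genes by the method of Benjamini and Hochberg, with a threshold of 0.05. SE was taken from the F statistic. CPM are TMM-normalised, and log2 CPM used a prior count of 2. DESeq2 1.42.0 and other settings served as alternatives, and the edgeR script was tested on simulated data. Positions are those of GENCODE M21 (GRCm38), and promoters those of RefSeq. Deposited FPKM were summed per route without a test. Within groups, no libraries were duplicates (40 pairs, chi-square per gene at least 15.19), and pairs from different groups were not compared. The members and gene lists were chosen with earlier results of these data known. All 10 genes, Pparg, and at most 4 genes per list and comparison with an adjusted p under 0.05 are named, together with the 3 genes most like Mogat1, Mogat2, Gpam, Lpin1 and Dgat2.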

Additional observations from a re-analysis of the deposited data

Results flagged for a closer look

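In 5 of the 40 sets of 5 libraries, the library at one end lay further from its nearest neighbour than Dixon's 95% limit allows, where chance gives about 1 in 20. Mogat1 was at 21.7 CPM in shRNA+BBR replicate 5, and the other four libraries of the group were at 26.3 to 27.5 CPM. Gpam was at 309 CPM in shRNA replicate 1 (others 153 to 170 CPM) and at 503 CPM in shRNA+BBR replicate 4 (others 162 to 252 CPM). Agpat3 was at 268 CPM in Vec replicate 1 (others 298 to 306 CPM), and Lpin1 was at 25.3 CPM in the same library (others 33.2 to 35.8 CPM).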

How the results depend on the processing

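Mogat1 with BBR in both vectors and Agpat2 with BBR in Vec kept direction and call under all 18 alternatives, and calls of Mogat2 and of Mogat1 with knockdown did not, as given beside them and, for the replicate block, in the next paragraph. Without scaling factors, uncalled values near 0 changed sign: in Vec+BBR against Vec, Lpin2 (0.0765) and Dgat2 (0.0668), in shRNA against Vec, Agpat3 (0.078), Lpin2 (0.0527) and Dgat2 (0.0289), and in the interaction, Dgat1 (-0.0141) and Dgat2 (-0.1197). That setting also moved the share of higher genes among those called from 40% to 66.3% in shRNA against Vec, and called 30 genes in the interaction (26.7% higher), where the TMM fit called 18 and DESeq2 338. A fit of only the 2 groups compared called 1178 genes in Vec+BBR against Vec (1908 with all groups, 1148 shared), 1 of the 10 genes in shRNA against Vec (2 with all groups) and 1 in shRNA+BBR against Vec+BBR (0 with all groups).

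Replicate numbers did not pair the mice: the correlation of libraries with the same number, group means removed, passed 0.1 in at most 3 of 5 numbers between any groups. With the replicate block, 1 of the 10 genes was called in shRNA against Vec, since Mogat1 had an adjusted p of 0.0713, and no other call among the 10 changed. Over all genes the block called 1747, 1495, 940, 1819 and 21 genes in the order of comparisons used next, beside 1908, 1628, 1004, 1932 and 18 without it, and not every library correlated best with its own number.

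Leaving out 1 library at a time, the genes called ran from 1237 to 2395 of all genes in Vec+BBR against Vec (2 to 4 of the 10), from 1015 to 2284 in shRNA against Vec (0 to 3), from 538 to 1129 in shRNA+BBR against Vec+BBR (0 to 0), from 661 to 2527 in shRNA+BBR against shRNA (1 to 2) and from 5 to 122 in the interaction (0 to 1). The lowest of these came without Vec replicate 2, shRNA replicate 4, shRNA+BBR replicate 2, shRNA+BBR replicate 3 and Vec+BBR replicate 4, and the highest of the interaction without Vec replicate 4. Counts of all genes also moved by over 1.5 times without Vec replicate 1 or Vec+BBR replicate 4 (1248 and 1256, BBR in Vec), without Vec+BBR replicate 2, 3, 4 or 5 (610 to 667, knockdown with BBR), without shRNA replicate 1, 2, 4 or 5 or shRNA+BBR replicate 2 or 4 (1140 to 1281, BBR under knockdown), and in the interaction without Vec replicate 1 or 5, Vec+BBR replicate 1, 2, 3 or 5, shRNA replicate 3 or 4, or shRNA+BBR replicate 2 or 5 (6 to 97). Uncalled log2 values that changed sign ran from -0.1648 to 0.0285 for Lpin2 and -0.0472 to 0.0891 for Lpin3 (Vec+BBR against Vec), from -0.1332 to 0.0176 for Lpin2 (shRNA against Vec), from -0.0583 to 0.0217 for Dgat1 (shRNA+BBR against Vec+BBR), from -0.0204 to 0.0628 for Agpat2, -0.0802 to 0.0099 for Agpat3 and -0.0603 to 0.0039 for Dgat1 (shRNA+BBR against shRNA), and from -0.5115 to 0.12 for Gpam, -0.1744 to 0.0187 for Lpin2 and -0.0362 to 0.0737 for Dgat2 (interaction). The median Mogat share ran from 3.29% to 3.74% in Vec, 8.04% to 9.21% in Vec+BBR, 1.25% to 1.56% in shRNA and 6.31% to 6.70% in shRNA+BBR. The cause of these changes was not tested. Counts were low, which limits precision, for Mogat2 (44 to 276 counts), Lpin3 (60 to 162) and, in Vec and shRNA, Mogat1 (52 to 485).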
